A study of Homo sapiens with 26 samples.

Results

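The desmosome genes described here are 10 genes for components of the desmosome: DSC2, DSC3, DSG2, DSG3, DSP, JUP, PKP1, PKP2, PKP3 and PERP. They were taken by symbol, and all 10 were found in each of 5 expression tables of 26485 gene symbols. RNA-seq had been performed in 3 established human cell lines of esophageal squamous cell carcinoma (ESCC), KYSE180, TE6 and KYSE150, after BRDT or TP63 expression had been altered. BRDT is a bromodomain protein gene of germ cells, and TP63 encodes p63, a transcription factor of squamous epithelium. The study asked how each factor alters gene expression, and here the question is how the desmosome genes responded.

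All groups were cultures of the named lines, transfected with a small interfering RNA (siRNA) or a plasmid. KYSE180 cells received a control siRNA (siCont, n = 3) or an siRNA against BRDT (siBRDT, n = 3), and in a separate experiment siCont (n = 2) or an siRNA against TP63 (siTP63, n = 2). TE6 cells received siCont, siBRDT or siTP63 (n = 2 each), and KYSE150 cells siCont or siTP63 (n = 2 each). Knockdown cells were collected after 48 h. KYSE150 cells carrying a BRDT expression plasmid (BRDT-OE, n = 3) were compared with cells given the control vector (cont, n = 3). The sources used here do not say which siRNA sequences went into the RNA-seq, how long overexpression lasted, or whether replicates were separate cultures, so p-values measure the spread between these libraries, which may be technical.

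Desmosomes are spot-like junctions that tie the keratin filaments of neighbouring epithelial cells together. The desmosomal cadherins, desmocollins (DSC genes) and desmogleins (DSG genes), span the membrane and bind their counterparts on the next cell. Plakoglobin (JUP) and the plakophilins (PKP genes) bind the cadherin tails, and desmoplakin (DSP) links this plaque to keratins. PERP is a tetraspan membrane protein needed for desmosome assembly in stratified epithelia and is known as a target of p63. In squamous epithelium, DSC3, DSG3 and PKP1 are typical of stratified layers, whereas DSC2, DSG2 and PKP2 also serve simple epithelia and heart.

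The libraries held 7582089 to 19372441 reads, and every member had at least 78 reads in every library. Under siBRDT, the BRDT mean was 1065 ± 62.5 in control and 159 ± 34.9 in knockdown libraries of KYSE180 (SD, n = 3 each), and it went from 241 ± 0.828 to 50.8 ± 5.97 in TE6 (SD, n = 2 each), with log2 fold changes of -2.75 (SE 0.12) and -2.23 (SE 0.16). Under BRDT-OE it went from 10.2 ± 5.07 to 16447 ± 949 (SD, n = 3 each). TP63 changed under siTP63 by -1.70 (SE 0.14) in KYSE180, by -4.45 (SE 0.12) in TE6 and by -2.34 (SE 0.26) in KYSE150, where the adjusted p was 0.082. siBRDT also lowered TP63, by -0.58 (SE 0.074) in KYSE180 and -1.15 (SE 0.12) in TE6 on the log2 scale. Values are read counts divided by the library's size factor (normalised read counts), set separately in each table, so levels of different tables were not tested against each other. TE6 siBRDT replicate 1 stood apart, with 20995 genes above 0 against 16817 in replicate 2. KYSE180 siBRDT replicate 1 also had more genes above 0, with 18972 against 17321 and 17778. By chi-square per gene its replicates 1 and 2 were closest, at 2.96, against 4.12 for 2 and 3 and 7.97 for 1 and 3. In KYSE150, replicates of siTP63 and siCont had the largest excess of replicate differences over counting error, with a chi-square per gene of 64.1 and 35.4 against 1.84 to 25.0 in the other pairs.

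Markers of squamous epithelium were at a mean of at least 100 for 6 of 6 genes in the KYSE180 and TE6 control groups. In KYSE150 controls 5 of 6 passed this level, SOX2 stayed between 5.66 and 9.94, and the simple epithelium genes KRT8 and KRT18 were high. Only 2 of the 5 simple epithelium markers reached a mean of 100 in these controls. KRT20, CDX2 and VIL1 were at 0 in KYSE150 siCont, and CDX2 was at 0 in the control-vector cells. The summed squamous markers moved with several treatments, from 85533 to 92933 with siCont to 47680 to 49773 with siBRDT in KYSE180, and from 58179 to 58950 with siCont to between 20911 and 27279 with siBRDT and between 9117 and 9528 with siTP63 in TE6. They were 115394 to 125370 with siCont and 51138 to 53180 with siTP63 in KYSE180, and in KYSE150 14163 to 15104 with siCont and 5612 to 6824 with siTP63. The 5 simple epithelium markers summed to 16455 to 18568 with siCont and 27735 to 27902 with siBRDT in TE6, to 34540 to 45835 with siCont and 18828 to 23842 with siTP63 in KYSE180, and to 81838 to 135222 and 43999 to 76532 in the same groups of KYSE150. The 3 endothelium markers summed to between 10.3 and 153 in all libraries, with 22.6 to 36.2 with siCont and 137 to 139 with siTP63 in KYSE180, and CDH5 at 7.07 to 19.3 with siCont and 82.5 to 145 with siTP63 in KYSE150, and the 5 fibroblast markers, mostly COL1A1, to between 60.9 and 1137. Among 4 leukocyte markers PTPRC did not exceed 3.92 and CD3E 9.80, while CD68, which moved from 517 to 578 to between 212 and 236 with siBRDT in KYSE180, made up nearly all of the sum. With siTP63 the leukocyte sum went from 403 to 414 to between 69.5 and 104 in TE6 and from 502 to 525 to between 160 and 173 in KYSE180, and with siBRDT in TE6 it was 234 to 242. The 5 mesenchymal markers summed to 400 to 410 with siCont and 157 to 168 with siBRDT in KYSE180. In KYSE150 they summed to 827 to 913 with siCont and 289 to 401 with siTP63. They were at 1310 to 2228 with cont and 2911 to 3350 with BRDT-OE in the same line. Only 1 of the 5 had a mean of at least 100 in each of these groups. In KYSE180 this was CDH2, with means of 289 with siCont and 115 with siBRDT. Whether these shifts had a part in the results on the desmosome genes was not tested. In such bulk samples fewer cells of a type and less RNA per cell cannot be told apart.

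The desmosomal cadherin genes lie close together on chromosome 18 (hg38, GENCODE release 44). DSC3 spans 30989365 to 31042815 and DSC2 31058840 to 31102522 on the minus strand, and DSG3 spans 31447741 to 31478702 and DSG2 31498177 to 31549008 on the plus strand. DSP (7541338 to 7586714) and PERP (138088505 to 138107419) are on chromosome 6, PKP1 on chromosome 1 (201283452 to 201332993), PKP2 on chromosome 12 (32790745 to 32896798), PKP3 on chromosome 11 (392614 to 404908) and JUP on chromosome 17 (41754604 to 41786931). Antisense genes overlap DSC2 (DSCAS), DSG2 (DSG2-AS1) and DSP (DSP-AS1), and PKP2 overlaps the pseudogene RPL35AP27 on the opposite strand and an unnamed lncRNA on its own. The sources used here do not state a strand setting for counting, so reads of these partners could not be told apart.

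RefSeq promoters (GRCh38.p14, 250 bases before to 50 after the start) were found for 8 of the 10 genes. Those of DSC3, DSG3 and PKP1 are shown because these 3 genes fell with siTP63 in both KYSE180 and TE6. Capitals mark CATG, a core of p53-family sites. The windows are chr18:31042693-31042992 on the minus strand for DSC3, chr18:31447491-31447790 on the plus strand for DSG3 and chr1:201283256-201283555 on the plus strand for PKP1.
DSC3: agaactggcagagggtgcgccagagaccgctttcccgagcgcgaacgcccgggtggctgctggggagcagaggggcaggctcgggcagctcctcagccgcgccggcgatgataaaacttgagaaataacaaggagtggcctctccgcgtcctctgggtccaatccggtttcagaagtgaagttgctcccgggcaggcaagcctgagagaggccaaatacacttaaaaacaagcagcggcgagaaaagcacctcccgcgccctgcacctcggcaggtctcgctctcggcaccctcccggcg
DSG3: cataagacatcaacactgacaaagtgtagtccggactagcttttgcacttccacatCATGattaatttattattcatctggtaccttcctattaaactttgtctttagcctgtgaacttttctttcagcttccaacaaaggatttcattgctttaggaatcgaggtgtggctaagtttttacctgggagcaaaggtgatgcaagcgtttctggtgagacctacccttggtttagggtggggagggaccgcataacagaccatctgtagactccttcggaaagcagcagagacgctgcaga
PKP1: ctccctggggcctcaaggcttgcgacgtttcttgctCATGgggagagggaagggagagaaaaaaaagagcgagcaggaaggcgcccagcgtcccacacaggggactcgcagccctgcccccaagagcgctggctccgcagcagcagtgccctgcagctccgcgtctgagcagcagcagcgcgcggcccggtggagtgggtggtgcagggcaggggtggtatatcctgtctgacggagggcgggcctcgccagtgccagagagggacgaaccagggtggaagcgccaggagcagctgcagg

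A spaced pair of CATG cores, the form of a full p53-family site, was found in 0 of the 8 members and in 0.373% of all promoters. The letters CATG occurred at -194 in DSG3 and -214 in PKP1, and in 54.9% of 35116 promoters. On either strand, the AP-1 letters TGAGTCA (4.95% of promoters) were found in PERP alone among the 8 genes, at -101, and the GC box GGGCGG (45.0%) in DSC2, DSG2, DSP, JUP, PKP1 and PERP, with no overlap between matches of different motifs. TATAAA (11.5%) and CACGTG (7.26%) were found in none of the 8. The DSG3 window stood out in base content, with 44% GC and 6 CpG against 60.7% to 77% and 15 to 43 in the other members and medians of 58.7% and 14 over all promoters. Of all promoters, 19.4% had a GC content at or below that of DSG3. A match of letters is not evidence of a bound site.

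In order to compare levels between members, normalised counts were divided by the length of the longest transcript. JUP was the highest member in 4 of the 5 control groups, at 2911 ± 43.6 per kb (SD, n = 3) in the siCont libraries of the KYSE180 BRDT experiment, 1829 ± 146 (SD, n = 2) in TE6 and 1533 ± 83.3 (SD, n = 3) in the KYSE150 control-vector cells. In KYSE150 siCont PKP3 was higher, at 2067 ± 269 against 1351 ± 336 for JUP (SD, n = 2 each), and the libraries of these genes did not overlap. DSC2 was the lowest member in 4 of the 5 groups, from 12.6 ± 1.55 (SD, n = 2) in KYSE150 siCont to 70.9 ± 2.36 (SD, n = 3) in KYSE180, and PKP2 was lowest in TE6, at 64.1 ± 2.6 (SD, n = 2). Several neighbours in the order did not differ beyond their libraries. These were DSG2, PKP1, PKP3 and DSP, each with the next, in the KYSE180 BRDT experiment, PKP3 with PKP1 and DSG3 with DSC3 in TE6, PKP2, DSP, PKP1 and DSG2 in KYSE150 siCont, where DSG3 also met DSC3, and PERP, DSP, PKP2 and DSG2 in the control-vector cells. The siCont libraries of the separate KYSE180 experiments, from separately normalised tables, also differed within themselves. DSG2 stood above DSG3 in the BRDT experiment (850 ± 53.2 against 392 ± 26.8 per kb, SD, n = 3) and below it in the TP63 experiment (244 ± 19.5 against 304 ± 18.1, SD, n = 2). With the length of the merged exons, DSG2 and DSG3 kept this order in each experiment, since DSG3 made up 43.2% to 43.7% and 67.2% to 67.8% of their sum. On that scale PKP2, not DSC2, was the lowest member in both KYSE180 experiments, at 67.2 ± 2.54 against 70.2 ± 2.33 per kb (SD, n = 3) in the BRDT experiment.

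**Figure D1:**
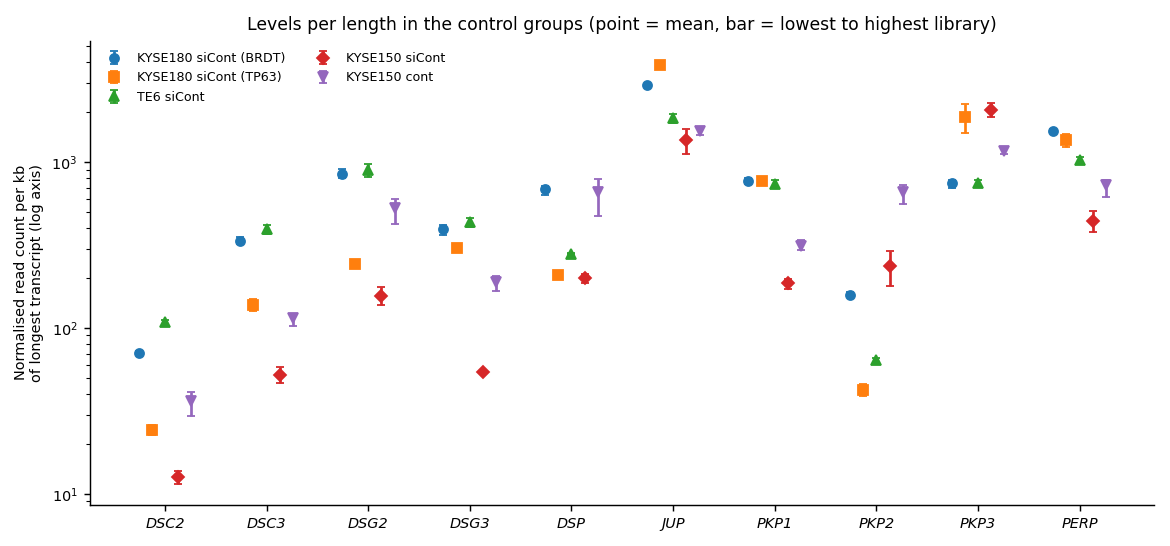
Normalised read count per kb of the longest transcript (log axis) of the 10 desmosome genes in the 5 control groups, with the mean as a point and the lowest to highest library as a bar (n = 2 or 3). JUP is at or near the top in every group and DSC2 at the bottom in all but TE6, where PKP2 is lower at 64.1.

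Calls required an adjusted p (Benjamini-Hochberg, over all genes tested with limma) under 0.05 together with a change of 0.5 or more in either direction, on the scale of log2(value + 1). With siBRDT in KYSE180, 5 of the 10 desmosome genes fell (DSC2, DSC3, DSP, PKP1 and PERP) and 0 rose, where 15.8% of all genes tested were called down and 14.5% up. Their median log2 fold change was -0.49 against -0.0052 for all genes, and 9 of the 10 had no overlap between groups, as had 62.8% of all genes tested. At an unadjusted p under 0.05 with no fold limit 7 were lower and 1 (PKP2) was higher, where 62.7% of all genes passed, and edgeR and DESeq2 called 4 and 5 down and 0 up each. The calls of DSP, PKP1 and PERP were close to the fold limit. Without siBRDT replicate 1, the one with more genes above 0, DSP (-0.46) and PKP1 (-0.50) dropped below it and 3 genes were called (DSC2, DSC3 and PERP). PKP1 was also below it without siCont replicate 3 (-0.49). After library-wise trends with transcript length and GC content had been taken out, DSC2, DSC3 and PKP1 were called.

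siBRDT in TE6 lowered 4 of the 10, DSC3, DSG2, DSP and PKP2, and raised 0, where 18.1% of all genes were called down and 15.6% up. The median of the members was -0.44 against -0.039 for all genes, 6 were lower and 1 was higher at an unadjusted p under 0.05 (53% of all genes passed), and edgeR and DESeq2 each called 4 down and 0 up. Rescaling to the upper quartile moved the share of falls among all calls from 53.8% to 41.4%. Without the TE6 siBRDT library that stood apart, DSC2 was called as well, at -0.91. Without siCont replicate 2, PKP2 lost its call (adjusted p = 0.066).

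DSC3, DSG3 and PKP1 fell with siTP63 in both KYSE180 and TE6. The share of all genes that fell in both lines was not counted. The DSC3 call in KYSE180 was lost when certain single libraries were left out. In KYSE180, 4 members fell (DSC3, DSG3, PKP1 and PKP3) and 1 rose (PKP2), where 25.7% of all genes were called down and 23.6% up, so the count of falls was not far from the background. Their median was 0.24 against 0.00064 for all genes. In TE6, 6 of the 10 fell (DSC2, DSC3, DSG2, DSG3, DSP and PKP1) and 0 rose, where 20.6% were called down and 18.3% up, with a median of -1.05 against -0.011. All 10 members had no overlap between the TE6 siTP63 and siCont libraries, as had 80.5% of all genes tested. At an unadjusted p under 0.05, which 56.6% of all genes passed, 8 were lower and 2 higher, and edgeR and DESeq2 called 6 down and 0 up each. The 6 falls in TE6 stayed called under every alternative that was run.

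In KYSE150, siTP63 gave 0 calls among the members in either direction, where 0% of all 12335 genes tested were called down and 0% up with limma. At an unadjusted p under 0.05 there were 0 of the 10 members and 2194 genes (17.8%). edgeR called 0 genes and DESeq2 259 down and 202 up, among them 0 members. The adjusted p-values here depended on the setting, and not only on how libraries were matched. With length and GC trends removed and no matching, 433 of all genes were called down and 293 up. A crossed pairing, added after seeing the data, called 1774 of all genes down and 1626 up. Member fold changes ran from -0.36 for PKP3 to 0.49 for JUP, and 3 of the 10 had no overlap between groups, where 48.9% of all genes tested had none.

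BRDT-OE in KYSE150 raised DSC3 and lowered DSG3, which is 1 of 10 in each direction where 10.5% of all genes were called up and 16% down. The median of the members was 0.13 against 0.017 for all genes. Fold changes in TE6 for siBRDT and siTP63 share their siCont libraries and are therefore not independent of each other.

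**Figure D2:**
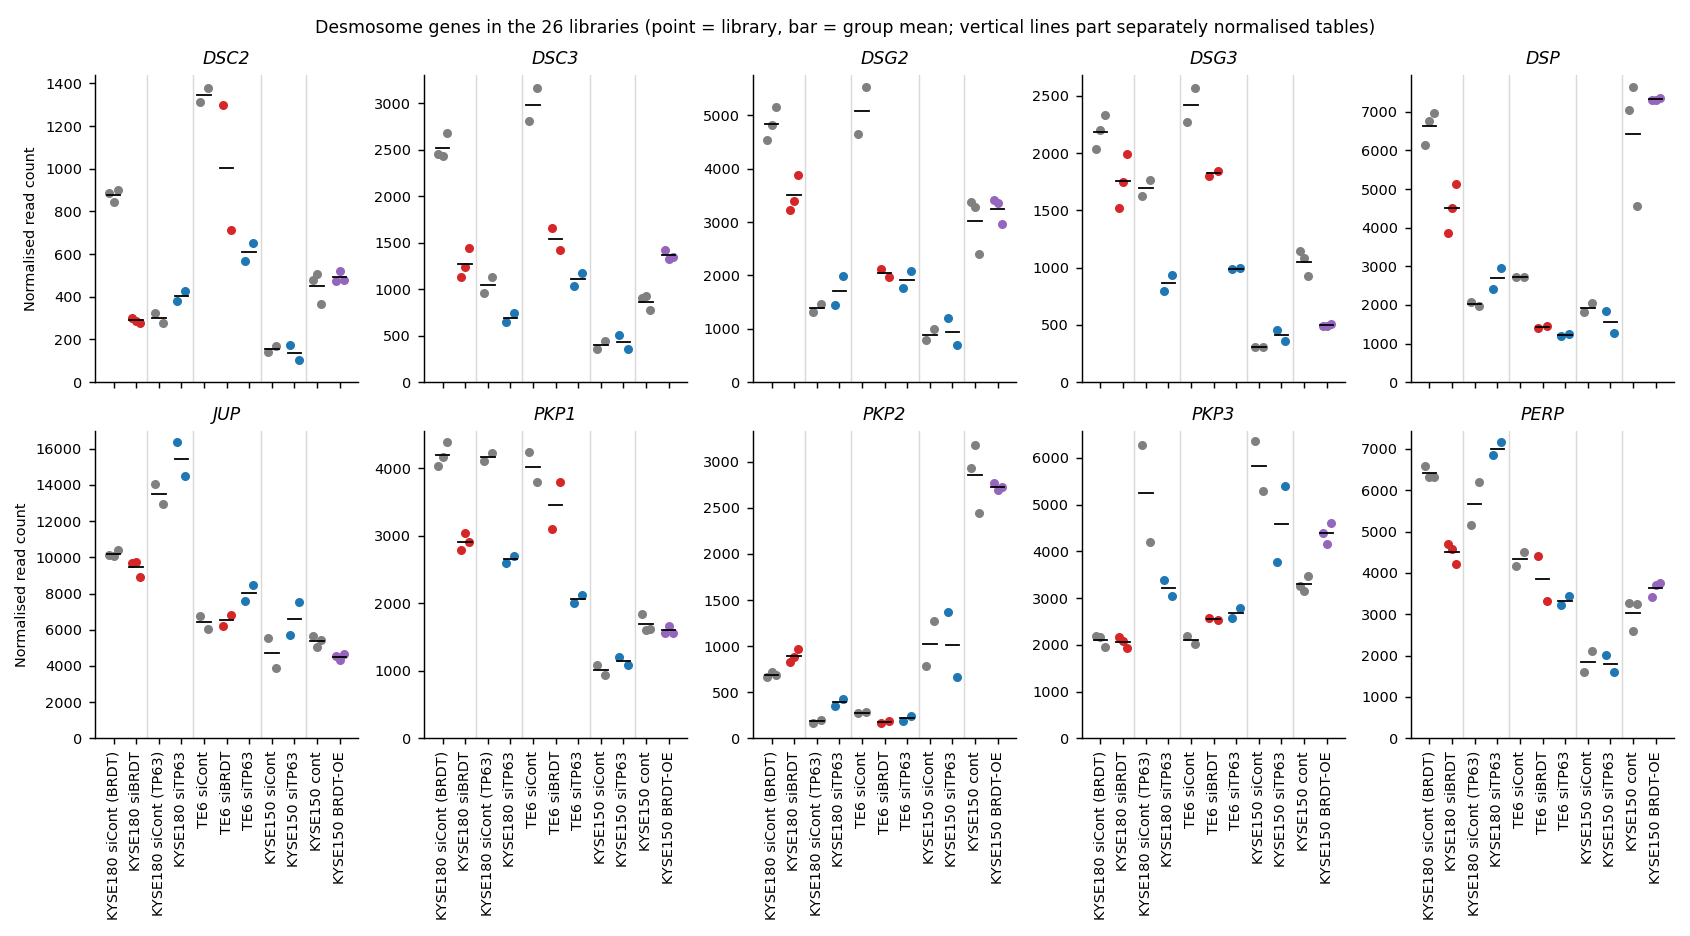
Normalised read count (vertical axis, from 0) of each desmosome gene in the 26 libraries by group, with a point per library, a bar at the group mean, grey for controls, red for siBRDT, blue for siTP63 and purple for BRDT-OE. DSC2 in KYSE180 goes from between 845 and 902 with siCont to between 279 and 302 with siBRDT, and DSG3 falls in every siTP63 group except KYSE150.

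**Figure D3:**
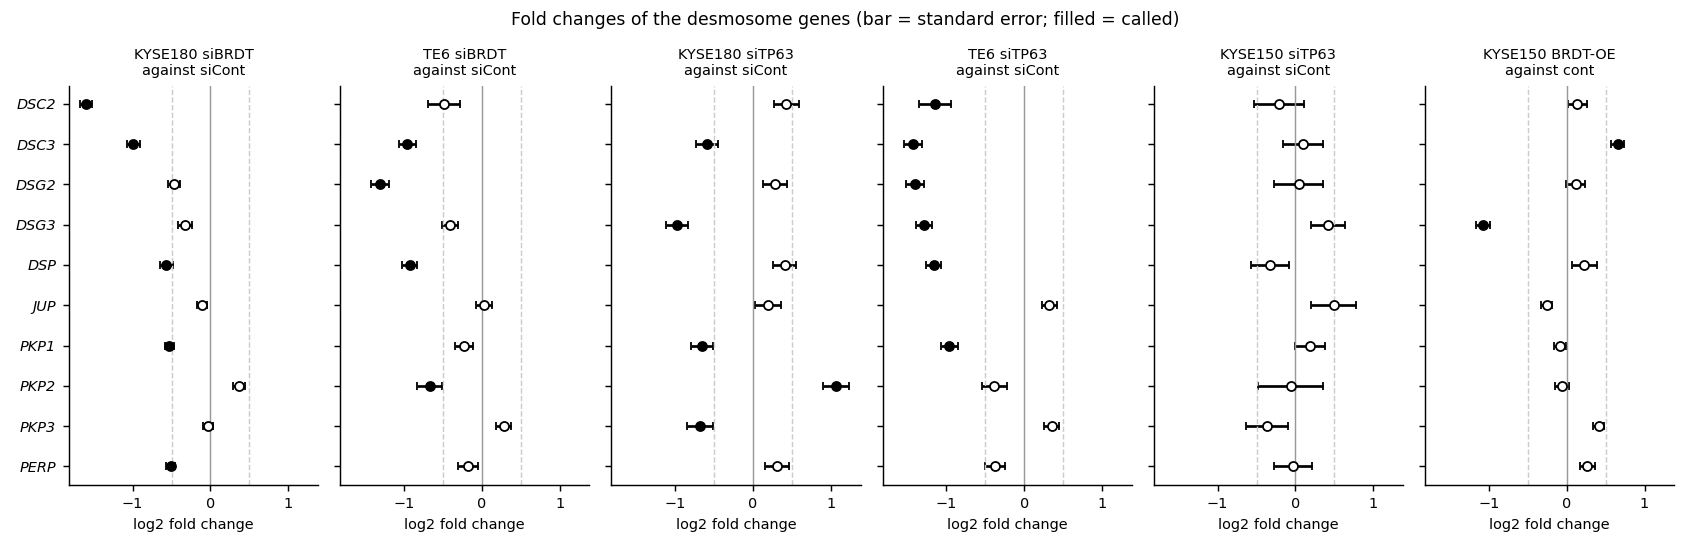
log2 fold change (horizontal axis) with its standard error for the 10 desmosome genes in the 6 comparisons, filled where called, with dashed lines at the limit of 0.5 in size. DSC3 is called down in 4 comparisons and up with BRDT-OE, while JUP is called in none.

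DSC3, the desmocollin of stratified epithelia, responded in 5 of the 6 comparisons. Its values were 2452, 2431 and 2686 with siCont and 1129, 1241 and 1445 with siBRDT in KYSE180, without overlap, a log2 fold change of -0.99 (SE 0.082, adjusted p = 1.2e-07). In TE6 the libraries were at 2806 and 3171 with siCont, 1664 and 1424 with siBRDT (-0.95, SE 0.11, adjusted p = 4.4e-05) and 1040 and 1176 with siTP63 (-1.43, SE 0.11, adjusted p = 1.2e-06). With the length and GC trend removed the siBRDT change in TE6 was -0.52, near the fold limit. The 3 TE6 groups were fully separate, and siTP63 and siBRDT differed by -0.48 (SE 0.11), below the fold limit. In KYSE180, siTP63 took DSC3 from 964 and 1130 to 647 and 744, a change of -0.59 (SE 0.15, adjusted p = 0.0012). That value was -0.93 with the trend removed, and the call was lost without siTP63 replicate 1 (-0.49) or without siCont replicate 2 (-0.47). BRDT-OE raised DSC3 in KYSE150 from 902, 924 and 777 to 1418, 1324 and 1351, or by 0.66 (SE 0.083, adjusted p = 0.00013), and all 3 treated libraries lay above all 3 controls. With siTP63 in KYSE150 the groups overlapped, at 355 and 438 against 503 and 355 (0.10, SE 0.26, adjusted p = 0.88).

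DSC2, the widely expressed desmocollin, had the largest fall of any member with siBRDT in KYSE180. It was at 884, 845 and 902 with siCont and at 302, 286 and 279 with siBRDT, which is -1.60 (SE 0.074, adjusted p = 4.2e-10) and a ratio of means of 0.329. In TE6 the siBRDT libraries disagreed, with 1299 in replicate 1, next to the siCont values of 1313 and 1378, and 713 in replicate 2, and the fold change of -0.48 (SE 0.20, adjusted p = 0.070) was not called. siTP63 lowered DSC2 in TE6 to 567 and 654, by -1.14 (SE 0.20, adjusted p = 0.00053), but in KYSE180 the values were 322 and 278 with siCont and 380 and 429 with siTP63 (0.43, SE 0.16, adjusted p = 0.022, below the fold limit). The KYSE180 value ran from 0.029 with the length and GC trend removed (adjusted p = 0.86) to 0.53 without siCont replicate 1, and it passed the limit in the latter setting and with upper quartile rescaling (0.50). With the trend removed the TE6 values were -0.041 for siBRDT and -0.72 for siTP63. In KYSE150 DSC2 was low in the siRNA experiment, with 78 to 208 reads, at 143 and 170 with siCont and 173 and 104 with siTP63 (-0.21, SE 0.32). The BRDT-OE libraries (475, 519 and 479) overlapped the controls (481, 508 and 364), and neither difference was called.

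DSG3, the desmoglein of basal stratified layers and an autoantigen of pemphigus vulgaris, fell with siTP63 in KYSE180 and TE6. In KYSE180 it went from 1625 and 1768 to 792 and 934 (-0.98, SE 0.14, adjusted p = 2.3e-06), and in TE6 from 2267 and 2572 to 989 and 993 (-1.28, SE 0.10, adjusted p = 1.0e-06). siBRDT gave smaller changes that stayed below the fold limit. The values were 2031, 2204 and 2329 with siCont and 1520, 1751 and 1987 with siBRDT in KYSE180 (-0.33, SE 0.087), and 1799 and 1844 with siBRDT in TE6 (-0.41, SE 0.10). The TE6 value was -0.075 with the length and GC trend removed (adjusted p = 0.46). In TE6 the siTP63 libraries were lower than the siBRDT libraries by -0.88 (SE 0.10, adjusted p = 3.5e-05). BRDT-OE lowered DSG3 in KYSE150, from 1146, 1083 and 926 to 490, 488 and 510, or by -1.08 (SE 0.091, adjusted p = 1.3e-05), the opposite direction to DSC3 in the same libraries. In the KYSE150 siRNA libraries, DSG3 was at 306 and 303 with siCont and 460 and 363 with siTP63 (0.42, SE 0.22, adjusted p = 0.37).

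DSG2, the desmoglein of simple epithelia and heart that squamous carcinoma lines also express, fell in TE6 with either siRNA. The siCont libraries were at 4647 and 5526, the siBRDT libraries at 2124 and 1976 (-1.31, SE 0.11, adjusted p = 5.8e-06) and the siTP63 libraries at 1762 and 2083 (-1.40, SE 0.11, adjusted p = 1.3e-06). The siRNA groups overlapped each other, with a difference of -0.097 (SE 0.11, adjusted p = 0.54). In KYSE180 siBRDT moved DSG2 from 4547, 4825 and 5153 to 3234, 3401 and 3893, which at -0.47 (SE 0.074, adjusted p = 7.7e-05) was just inside the fold limit and was called without siBRDT replicate 3 (-0.54) or without siCont replicate 1 (-0.51). With siTP63 in KYSE180 it was 1443 and 1985 against 1313 and 1470 (0.28, SE 0.15, adjusted p = 0.11), with overlap. That value ran from 0.0071 with the length and GC trend removed (adjusted p = 0.97) to 0.51 without siTP63 replicate 1, where it was called up, and it was 0.054 without siTP63 replicate 2. In KYSE150 the values were 786 and 999 with siCont and 1197 and 692 with siTP63 (0.039, SE 0.31), and 3386, 3275 and 2412 with the control vector and 3412, 3362 and 2959 with BRDT-OE (0.11, SE 0.12, adjusted p = 0.45). Groups overlapped in both.

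DSP, whose product anchors keratins to the plaque, fell with either siRNA in TE6, from 2723 and 2712 to 1406 and 1453 with siBRDT (-0.93, SE 0.095, adjusted p = 1.6e-05) and to 1193 and 1237 with siTP63 (-1.16, SE 0.095, adjusted p = 1.3e-06). In KYSE180 siBRDT took it from 6141, 6754 and 6965 to 3856, 4503 and 5133, or -0.57 (SE 0.088, adjusted p = 6.2e-05), and the call ended with the length and GC trend removed (-0.49). siTP63 in KYSE180 gave higher values, 2420 and 2951 against 2070 and 1960, with 0.41 (SE 0.14, adjusted p = 0.018) below the limit. That value was 0.12 with the length and GC trend removed (adjusted p = 0.35), 0.26 without siTP63 replicate 2 and 0.55, a call, without siTP63 replicate 1. In the KYSE150 overexpression experiment the BRDT-OE libraries were at 7317, 7304 and 7363 and the controls at 7058, 7642 and 4553, so control replicate 3 set the fold change of 0.23 (SE 0.16), which was -0.0032 without it. With siTP63 in KYSE150 DSP was at 1813 and 2037 against 1836 and 1274 (-0.33, SE 0.25, adjusted p = 0.53).

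JUP, which is shared between desmosomes and adherens junctions, was called in none of the 6 comparisons, with fold changes from -0.26 to 0.49. Its libraries were at 10132, 10099 and 10379 with siCont and 9710, 9770 and 8914 with siBRDT in KYSE180, a difference of -0.11 (SE 0.061, adjusted p = 0.13). In TE6 they were at 6773 and 6051 with siCont, 6221 and 6833 with siBRDT and 7570 and 8467 with siTP63, and the last differed from siCont by 0.32 (SE 0.10, adjusted p = 0.017), or 0.10 with the length and GC trend removed (adjusted p = 0.25). BRDT-OE changed it by -0.26 (SE 0.070, adjusted p = 0.011), with 4534, 4320 and 4637 against 5646, 5065 and 5410, a separation of the groups at a small size. With siTP63 it was at 16378 and 14475 against 14054 and 12962 in KYSE180 (0.19, SE 0.17) and at 5707 and 7516 against 5565 and 3902 in KYSE150 (0.49, SE 0.28, adjusted p = 0.42).

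PKP1, the plakophilin of stratified epithelia, fell with siTP63 in KYSE180 from 4105 and 4231 to 2602 and 2698 (-0.65, SE 0.14, adjusted p = 0.00032) and in TE6 from 4234 and 3799 to 2004 and 2116 (-0.96, SE 0.11, adjusted p = 2.1e-05). siBRDT lowered it in KYSE180, from 4033, 4162 and 4383 to 2787, 3034 and 2905 (-0.53, SE 0.061, adjusted p = 3.8e-06), and not past the thresholds in TE6, at 3097 and 3798 (-0.23, SE 0.11). The difference between siTP63 and siBRDT in TE6 was -0.74 (SE 0.11, adjusted p = 0.00027). In KYSE150 PKP1 was at 1198 and 1090 with siTP63 against 1078 and 939 (0.18, SE 0.19), and at 1564, 1662 and 1562 with BRDT-OE against 1842, 1609 and 1625 (-0.082, SE 0.076), neither called.

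PKP2, the plakophilin of simple epithelia and heart, was called up once and down once. With siTP63 in KYSE180 it rose from 170 and 200.2 to 351 and 429 (1.07, SE 0.17, adjusted p = 6.8e-06), and with siBRDT in TE6 it fell from 272 and 288 to 166 and 186 (-0.66, SE 0.16, adjusted p = 0.0048). In KYSE180 with siBRDT the values were 825, 881 and 966 against 665, 717 and 690, higher without overlap but below the limit (0.36, SE 0.075, adjusted p = 0.00071). In KYSE150 with siTP63 the replicates of each group differed widely, at 783 and 1269 with siCont and 1372 and 663 with siTP63. The TE6 siTP63 libraries were at 188 and 243 (-0.39, SE 0.16, adjusted p = 0.060), and BRDT-OE (2766, 2692 and 2722) overlapped its controls (2938, 3187 and 2447).

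PKP3 fell with siTP63 in KYSE180, from 6266 and 4207 to 3382 and 3053 (-0.68, SE 0.17, adjusted p = 0.0011). That call rested on siCont replicate 1, without which the change was -0.39, and it also ended with the length and GC trend removed (-0.44). In TE6 PKP3 was higher in the siTP63 libraries (2567 and 2794) and the siBRDT libraries (2570 and 2535) than in siCont (2178 and 2022), at 0.35 (SE 0.096) and 0.28 (SE 0.096), below the limit, and with the length and GC trend removed these values were -0.014 and -0.14. BRDT-OE libraries were at 4389, 4159 and 4595 against 3261, 3156 and 3467, without overlap (0.41, SE 0.070, adjusted p = 0.00079), and the gene was called up with the trend removed (0.66).

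PERP fell with siBRDT in KYSE180, from 6587, 6314 and 6328 to 4692, 4581 and 4214, or -0.51 (SE 0.061, adjusted p = 5.0e-06), just past the fold limit. It was below the limit with edgeR (-0.50), with the length and GC trend removed (-0.44), without siBRDT replicate 3 (-0.47) and without siCont replicate 1 (-0.49). siTP63 gave 6849 and 7164 against 5148 and 6201 in KYSE180 (0.31, SE 0.15) and 3216 and 3449 against 4158 and 4495 in TE6 (-0.38, SE 0.12), neither called, and with the trend removed these were 0.098 and -0.17. In KYSE150 it was 2011 and 1602 against 1592 and 2112 with siTP63 (-0.031, SE 0.24) and 3417, 3708 and 3763 against 3265, 2597 and 3240 with BRDT-OE (0.27, SE 0.094).

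The balance between related members was read within each library, as shares of their summed levels per kb. DSG3 made up 32.2% to 33.3% of DSG2 and DSG3 in TE6 siCont, 46.4% to 48.8% with siBRDT and 32.7% to 36.4% with siTP63. In KYSE180 its share went from 55.1% to 55.8% with siCont to 32.5% to 35.9% with siTP63, and in KYSE150 from 25.2% to 28.2% with the control vector to 12.8% to 15% with BRDT-OE. These groups did not overlap, apart from TE6 siTP63 and TE6 siCont.

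Among the desmocollins, DSC3 made up 67.6% to 89.4% in all 26 libraries. It was at 81.9% to 82.9% with siCont and 85.9% to 89.4% with siBRDT in KYSE180, and at 83.0% to 86.9% with siCont and 73.5% to 73.9% with siTP63 in the same line. In TE6 the DSC3 share was lower with siBRDT, at 67.6% to 76.5% against 77.7% to 79.0% with siCont. PKP1 had 47.1% to 48.2% of the plakophilin sum in TE6 siCont and 27.1% to 27.8% with siTP63, with PKP3 at 47.9% to 48.5% and 68.9% to 69.1%. In KYSE180 the PKP1 shares overlapped, at 25.0% to 33.5% with siCont and 27.2% to 29.5% with siTP63. KYSE150 had less PKP1 in its plakophilin sum, at 7.36% to 7.51% with siCont and 13.8% to 15.6% with the control vector. The shares follow from the values above and were not tested.

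**Figure D4:**
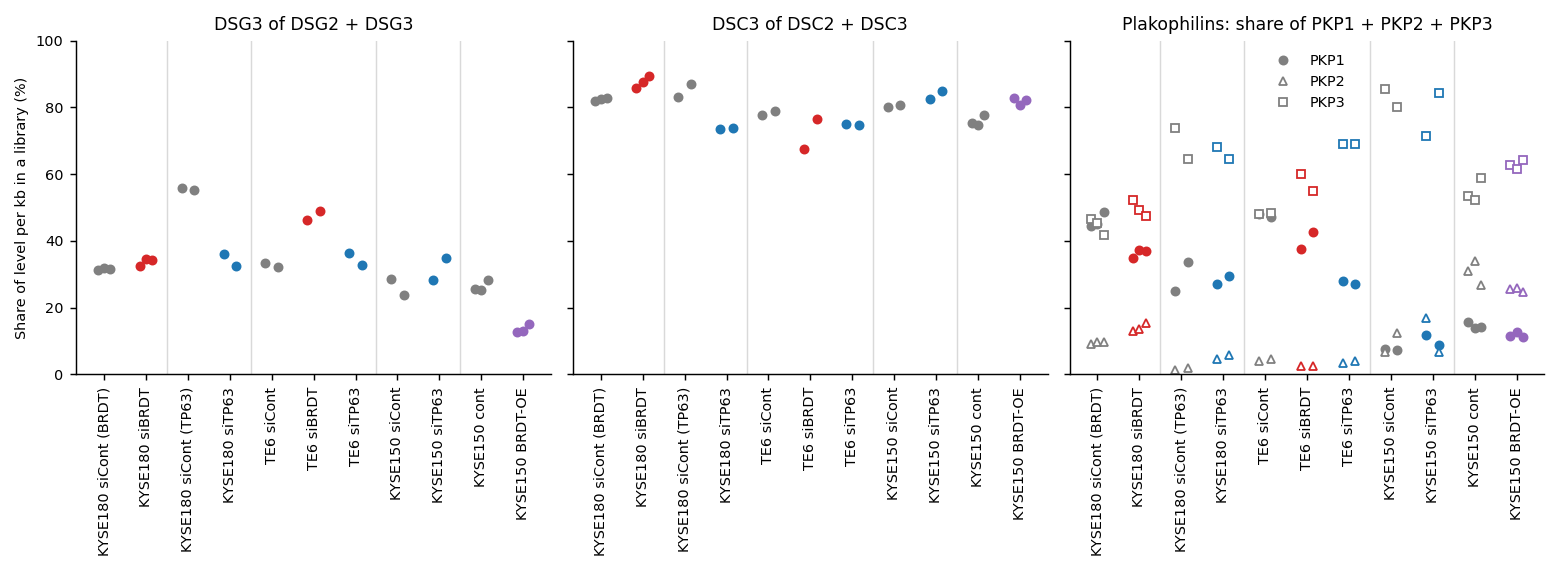
Share (%) of the summed level per kb in each library held by DSG3 among DSG2 and DSG3, by DSC3 among DSC2 and DSC3, and by each plakophilin, for the 11 groups (grey controls, red siBRDT, blue siTP63, purple BRDT-OE). In TE6 the DSG3 share is highest with siBRDT, between 46.4% and 48.8%, and over all groups it is lowest with BRDT-OE, between 12.8% and 15%.

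TE6 siTP63 and siBRDT libraries were also compared with each other, and 3 members (DSC2, DSG3 and PKP1) were lower with siTP63 and 0 higher, where 14.3% of all genes were called down and 14.1% up. At an unadjusted p under 0.05, which 47.9% of all genes passed, 5 were lower and 1 was higher, and edgeR and DESeq2 called 3 and 2 down and 0 up each. DSC2 (-0.66, SE 0.20, adjusted p = 0.022) depended on the TE6 siBRDT library that stood apart and was at -0.23 without it.

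Whether a response differed between cell lines was tested as the difference of the log2 fold changes, at an adjusted p under 0.05 with no fold limit. The lines were treated in separate experiments, so differences between lines and differences between experiments cannot be told apart. For siBRDT in TE6 minus KYSE180, 3 members were lower (DSG2, DSP and PKP2) and 2 higher (DSC2 and PKP3), where 22.5% of all genes were called lower and 19.4% higher. DSG2 differed by -0.84 (SE 0.14, adjusted p = 0.00018) and PKP2 by -1.03 (SE 0.16, adjusted p = 9.4e-05), whereas the responses of DSC3 (0.040, SE 0.15) and DSG3 (-0.080, SE 0.14) did not differ past the threshold. DSC2 differed by 1.12 (SE 0.22, adjusted p = 0.00068), and by 0.68 without the TE6 siBRDT library that stood apart. DSP (-0.36, SE 0.14, adjusted p = 0.043) and PKP3 (0.31, SE 0.12, adjusted p = 0.040) lost their calls under several alternatives, and with the length and GC trend removed they were at -0.17 and 0.027.

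For siTP63 in TE6 minus KYSE180, 6 members were lower (DSC2, DSC3, DSG2, DSP, PKP2 and PERP) and 1 was higher (PKP3), where 26.2% were called lower and 28.8% higher. DSC2, DSG2 and DSP, which fell in TE6 and had log2 fold changes above 0 in KYSE180, differed by -1.57 (SE 0.27), -1.69 (SE 0.20) and -1.57 (SE 0.16). With the length and GC trend removed the differences of DSC2 (-0.71) and DSG2 (-1.12) were smaller. The DSP difference also shrank under the alternatives, to -1.10 at its smallest. DSG3 (-0.31, SE 0.17, adjusted p = 0.13) and PKP1 (-0.31, SE 0.17, adjusted p = 0.13), which fell in both lines, did not differ past the threshold with limma or DESeq2. edgeR called both lower (-0.41 each, adjusted p = 0.046 and 0.040), and had 8 members lower and 1 higher. With the trend removed DSG3 was at 0.20. The TP63 response itself differed by -2.74 (SE 0.19) between these lines, and its part in the member differences was not tested. With the trend removed, DSC3 (-0.080) and PERP (-0.25) no longer differed past the threshold, and PKP3 was at 0.40.

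For siTP63 in KYSE150 minus KYSE180, DSG3 was higher (1.40, SE 0.24, adjusted p = 0.036) and 0 members were lower, where 0.849% of genes were called lower and 0.774% higher. At an unadjusted p under 0.05, 1 was lower and 3 were higher (26.4% of all genes passed), and edgeR and DESeq2 called 0 lower each and 1 and 2 higher. For KYSE150 minus TE6, 4 members were higher (DSC3, DSG2, DSG3 and PKP1) and 0 lower, where 1.66% were called lower and 2.2% higher, with 1 lower and 6 higher at an unadjusted p under 0.05 (23.6% of all genes passed) and 0 lower by edgeR and DESeq2. DSG3 had the largest of these differences, 1.71 (SE 0.22, adjusted p = 0.0033), and DSC3 was next at 1.53 (SE 0.28, adjusted p = 0.018). Leaving out either siCont or either siTP63 library of TE6 left DSG3 as the only call against TE6. Against KYSE180, DSG3 was no longer called when any of the 4 KYSE180 libraries or either KYSE150 siCont library was left out, and without KYSE150 siTP63 replicate 1 there were 3 members lower (DSC2, DSP and PKP2) and 2 higher.

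**Figure D5:**
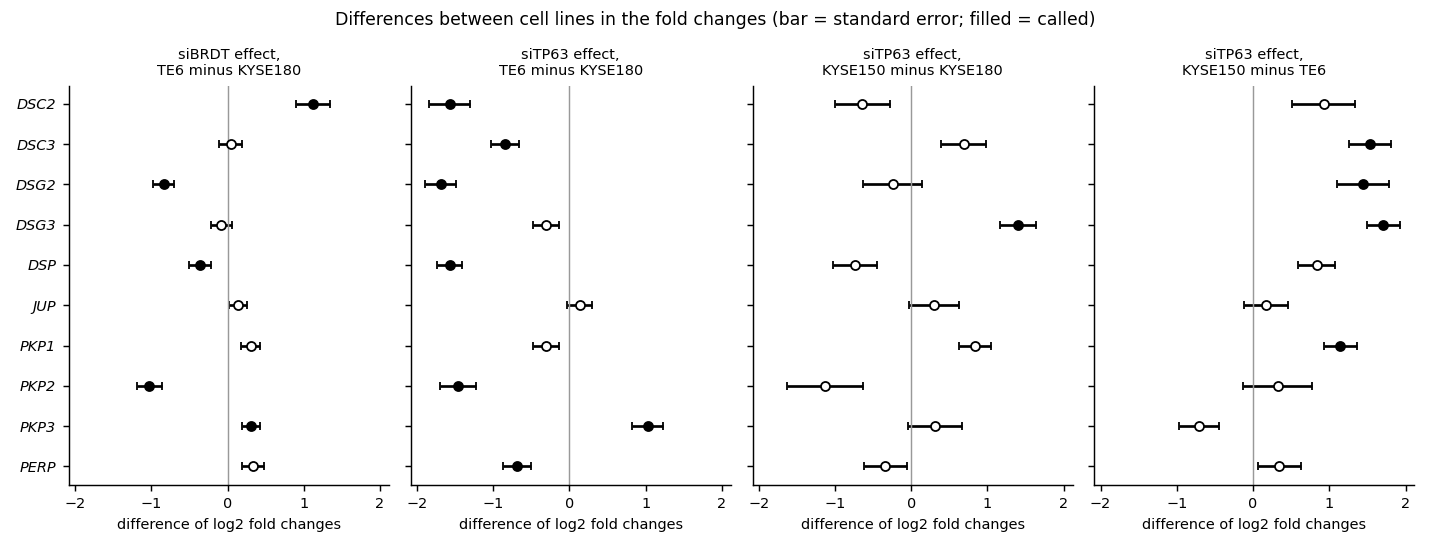
Difference between cell lines in the log2 fold change of each desmosome gene (horizontal axis), with its standard error, filled where called. Lines and experiments cannot be told apart. For siTP63, TE6 lies below KYSE180 by 1.57 to 1.69 for DSC2, DSG2 and DSP, and KYSE150 lies above TE6 by 1.71 for DSG3.

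Other genes of the junction were counted from fixed lists. For comparison, 15.8% of all genes tested were called down and 14.5% up with siBRDT in KYSE180, and 18.1% and 15.6% in TE6. With siTP63 these shares were 25.7% and 23.6% in KYSE180 and 20.6% and 18.3% in TE6. They were 16% and 10.5% with BRDT-OE and 14.3% and 14.1% for TE6 siTP63 against siBRDT. A list count near these shares does not set that list apart from all genes. Keratins, the filaments that desmosomes hold, had 14 tested genes in KYSE180 and TE6. siTP63 lowered 12 and raised 2 of them in KYSE180, and lowered 9 and raised 2 in TE6, with medians of -0.96 and -1.59. Among keratins with a mean of at least 100, the basal keratin KRT14 led the falls, at -2.76 (SE 0.17) in KYSE180 and -5.26 (SE 0.12) in TE6, followed by KRT13 in KYSE180 (-1.44, SE 0.23) and KRT5 in TE6 (-3.32, SE 0.14). KRT4 of suprabasal esophageal cells rose by 2.0 (SE 0.16) and 2.90 (SE 0.16), and KRT7 of simple epithelia by 1.27 (SE 0.18) and 1.73 (SE 0.18). KRT7 did not stand for the simple epithelium keratins as a set. KRT8, KRT18 and KRT19 were among the 12 that fell in KYSE180, and were not among the 2 raised in TE6. siBRDT lowered 5 and raised 1 keratin in KYSE180, led by KRT14 (-1.14, SE 0.075) and KRT5 (-1.02, SE 0.072), and lowered 5 and raised 4 in TE6, where KRT5 changed by -1.49 (SE 0.14), KRT14 by -1.47 (SE 0.12), KRT4 by 1.5 (SE 0.16) and KRT7 by 1.36 (SE 0.18). BRDT-OE lowered KRT15 (-1.21, SE 0.26) and KRT7 (-0.77, SE 0.12) and raised KRT6A (0.56, SE 0.093) and KRT14 (0.55, SE 0.15), 2 in each direction of 11 tested. TE6 siTP63 against siBRDT had 10 lower and 1 higher, with KRT14 at -3.79 (SE 0.12), KRT17 at -1.86 (SE 0.093) and KRT4 at 1.40 (SE 0.16).

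Adherens junction genes had 11 tested members in KYSE180 and TE6. siBRDT lowered 5 of them in KYSE180, including CDH2 (N-cadherin, -1.32, SE 0.10) and CTNNA1 (alpha-catenin, -0.74, SE 0.077), and 7 in TE6, including VCL (vinculin, -1.21, SE 0.12) and AFDN (afadin, listed as MLLT4, -0.77, SE 0.12), and raised 0 in either. siTP63 lowered 1 and raised 5 in KYSE180, with NECTIN1 (listed as PVRL1) at -0.64 (SE 0.15), NECTIN4 (PVRL4) at 1.97 (SE 0.15) and VCL at 1.47 (SE 0.15). In TE6 it lowered 4 and raised 2, with PVRL1 at -1.45 (SE 0.11), MLLT4 at -0.75 (SE 0.12), PVRL4 at 1.47 (SE 0.12) and NECTIN2 (PVRL2) at 0.60 (SE 0.13). BRDT-OE lowered PVRL4 (-1.25, SE 0.17) and raised VCL (0.52, SE 0.13), of 10 tested. TE6 siTP63 against siBRDT had 1 lower, PVRL1 at -0.72 (SE 0.11), and 5 higher, led by PVRL4 at 1.44 (SE 0.12) and CDH3 (P-cadherin) at 0.96 (SE 0.13).

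Of 9 other desmosome and linker genes, 5 were tested in KYSE180 and TE6. The plakin PPL (periplakin) rose with siTP63 by 1.48 (SE 0.15) in KYSE180 and 0.92 (SE 0.16) in TE6, where EVPL (envoplakin) rose by 1.01 (SE 0.12). KAZN (kazrin) fell with siTP63 in KYSE180 by 1.07 on the log2 scale (SE 0.20). The list had 1 fall and 1 rise with siTP63 in KYSE180, 2 and 2 in TE6, 0 and 0 with siBRDT in KYSE180 and 1 and 0 in TE6. The fall with siBRDT in TE6 was that of CTNND1, which the adherens junction list also counts. Its level was low, with means of 54.9 with siCont and 5.80 with siBRDT. BRDT-OE lowered PPL (-0.69, SE 0.097) and raised KAZN (0.53, SE 0.091), of 6 tested. TE6 siTP63 against siBRDT had 1 lower and 2 higher, PPL (1.36, SE 0.16) and EVPL (0.52, SE 0.12).

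Genes of desmosome turnover and assembly, 12 in number, had 11 tested in KYSE180 and 10 in TE6. siBRDT lowered 4 and raised 1 in KYSE180, with the protease gene CTSV at -1.27 (SE 0.085) and the kinase gene PRKCA at -0.92 (SE 0.11), and lowered 7 and raised 0 in TE6, with the sheddase gene ADAM9 at -1.68 (SE 0.11) and the calcium pump gene ATP2A2 at -1.36 (SE 0.11). siTP63 lowered 1 (SPINK5, a protease inhibitor, -0.68, SE 0.15) and raised 3 in KYSE180, with ADAM17 at 1.36 (SE 0.16) and ADAM9 at 1.20 (SE 0.14), and lowered 6 and raised 0 in TE6, with EGFR at -1.71 (SE 0.12) and ATP2A2 at -1.40 (SE 0.11). BRDT-OE gave 0 calls among 10 tested. TE6 siTP63 against siBRDT had 1 lower (EGFR, -0.76, SE 0.12) and 2 higher, ATP2C1 (1.07, SE 0.10) and ADAM17 (0.51, SE 0.16). In KYSE150 siTP63 called 0 genes in each of these lists, where 0% of all genes tested were called in either direction.

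The genes whose 6 log2 fold changes lay nearest to the medians of the desmosome genes, by root mean square difference over 11337 genes, were CYB5R4 (0.098), ENAH (0.11), ZNF318 (0.14), ITPR3 (0.14) and YTHDC2 (0.14). CYB5R4, for example, had -0.61 and -0.53 with siBRDT in KYSE180 and TE6 and 0.29 and -0.97 with siTP63. The members' own medians were -0.49, -0.44, 0.24 and -1.05 in the same order.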

How the data were processed

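RNA-seq was performed on 26 libraries in 11 groups of 3 cell lines. Per the labels, the authors aligned reads with STAR 2.6.0 to hg38, counted them with HTSeq 0.11.2 and deposited DESeq2 1.24.0 normalised counts in 5 tables (unit: signal, each count over its library's size factor). The annotation and strand setting are not given in the sources used here. In each library 100% of values came out as whole reads after division by its smallest step (tolerance 0.05), so reads were recovered.

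Values were tested as log2(value + 1) with limma 3.58.1 in R 4.3.3 (trended empirical Bayes, two-sided, no replicate block), for genes with a mean of at least 10, with Benjamini-Hochberg adjustment over all genes tested. Each table was fitted alone. Differences between lines were contrasts of fold changes. Alternatives were edgeR 4.0.16 and DESeq2 1.42.0 on recovered reads, a pseudocount of 0.1, no filter, upper quartile rescaling, removal of length and GC trends, no fold limit, a replicate block, only the groups compared (TE6), merged exon lengths and leaving out each library. The fits were also run on reads simulated with a fixed spread, which does not copy the uneven replicate differences of these libraries. Lengths came from GENCODE, matched for 24545 symbols (92.7%).

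All members were named, with up to 2 called genes per direction and list with the largest changes and a mean of at least 100, and the 5 genes nearest to the members' medians. Members and lists were chosen with earlier results of these data known. No 2 libraries agreed within sampling noise (lowest chi-square per gene 1.84), and depth was 7582089 to 19372441 reads.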

Additional observations from a re-analysis of the deposited data

Results flagged for a closer look

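Differences between cell lines in the response to a knockdown, tested as differences of log2 fold changes with limma, passed an adjusted p of 0.05 for 17 combinations of gene and contrast. Over all genes tested, 22.5% were called lower and 19.4% higher for siBRDT in TE6 minus KYSE180. For siTP63 these shares were 26.2% and 28.8% in TE6 minus KYSE180. They were 0.849% and 0.774% in KYSE150 minus KYSE180, and 1.66% and 2.2% in KYSE150 minus TE6. Several of the member calls were lost under alternatives, as given above. For siBRDT, TE6 minus KYSE180, DSC2 differed by 1.12 (SE 0.22), DSG2 by -0.84 (SE 0.14), DSP by -0.36 (SE 0.14), PKP2 by -1.03 (SE 0.16) and PKP3 by 0.31 (SE 0.12). For siTP63, TE6 minus KYSE180, DSC2 differed by -1.57 (SE 0.27), DSC3 by -0.84 (SE 0.19), DSG2 by -1.69 (SE 0.20), DSP by -1.57 (SE 0.16), PKP2 by -1.46 (SE 0.24), PKP3 by 1.03 (SE 0.20) and PERP by -0.69 (SE 0.19). For siTP63, KYSE150 minus KYSE180, DSG3 differed by 1.40 (SE 0.24). For siTP63, KYSE150 minus TE6, DSC3 differed by 1.53 (SE 0.28), DSG2 by 1.44 (SE 0.34), DSG3 by 1.71 (SE 0.22) and PKP1 by 1.15 (SE 0.22). TE6 siCont libraries enter both the siBRDT and the siTP63 contrasts, so these are not independent of each other. In all 17 combinations, line and experiment cannot be told apart.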

How the results depend on the processing

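Of the member fold changes, 812 values under settings other than leaving out a library kept direction and side of the thresholds, 22 lost a call, 33 gained a call and 13 changed sign. Leaving out single libraries gave 680, 51, 18 and 31.

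With no fold limit, calls up among the members were 1 for siBRDT in KYSE180, 1 for siBRDT in TE6, 3 for siTP63 in KYSE180, 2 for siTP63 in TE6, 1 for TE6 siTP63 against siBRDT and 3 for BRDT-OE, which then had 2 down. Over all genes, calls up were then 3893 of 13589 for siBRDT in KYSE180 and 2925 of 13333 in TE6. For siTP63 they were 3890 of 13924 in KYSE180 and 3280 of 13333 in TE6, and 2572 of 13333 against siBRDT. BRDT-OE had 3326 up and 3195 down of 12765. Removing length and GC trends gave 3 down for siBRDT in KYSE180 and 2 up for BRDT-OE, and among line differences 4 up for siBRDT and 3 up for KYSE150 minus KYSE180. The same calls over all genes were, in this order, 2072 of 13293, 1332 of 12475, 2356 of 12389 and 587 of 11675. Upper quartile rescaling gave 2 up for siTP63 in KYSE180 and 4 up for the siBRDT difference, as did edgeR (4) and DESeq2 (4), while without the filter it had 1 up. Over all genes, rescaling gave 3721 of 13924 and 3037 of 12612 up. For the siBRDT difference edgeR and DESeq2 had 2625 and 2597 of 12612 up, and no filter 2334 of 23006. For KYSE150 minus KYSE180, DESeq2 gave 2 up (668 of 11891 over all genes) and no filter 0 (13 of 21328). With the replicate block that difference had 0 up (0 of 11891 over all genes) and KYSE150 minus TE6 had 1 up (45 of 11645). The cause was not tested.

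Same-numbered libraries correlated at -0.70 to 0.18 in their deviations from group means, so the numbers were not taken to pair them. In KYSE150 siTP63 the block gave 48 genes down and 89 up, and a crossed pairing, added after seeing the data, 1774 down and 1626 up. Among KYSE150 minus KYSE180 calls over all genes, 52.3% were lower, against 41.8% with DESeq2 and 40.5% with trends removed. For the siBRDT difference the share went from 53.7% to 41.5% with upper quartile rescaling.

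Leaving out single libraries, calls down ranged from 3 to 5 for siBRDT in KYSE180, 0 to 3 for KYSE150 minus KYSE180 and 0 to 1 for KYSE150 minus TE6. Calls up ranged from 1 to 3 for siTP63 in KYSE180, 1 to 3 for the siBRDT difference, 0 to 2 for KYSE150 minus KYSE180 and 1 to 6 for KYSE150 minus TE6.

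Signs changed for values that were not called. With trends removed, siBRDT in TE6 gave JUP -0.15, PKP3 -0.14 and PERP 0.10, siTP63 in TE6 gave PKP3 -0.014, BRDT-OE gave DSC2 -0.020, siTP63 in KYSE150 gave PERP 0.043, the siBRDT difference gave DSG3 0.15, TE6 minus KYSE180 for siTP63 gave DSG3 0.20 and JUP -0.16, and KYSE150 minus KYSE180 gave DSG2 0.082. Rescaling gave DSG3 0.026 in the siBRDT difference and PERP 0.0045 in KYSE150 siTP63, and edgeR gave PKP2 0.0096 there. Leaving out single libraries, PKP3 ranged from -0.082 to 0.015 for siBRDT in KYSE180, and in TE6 JUP from -0.055 to 0.11 and PERP from -0.38 to 0.029. For siTP63 in KYSE150 the ranges were -0.58 to 0.15 for DSC2, -0.15 to 0.35 for DSC3, -0.36 to 0.43 for DSG2, -0.59 to 0.46 for PKP2 and -0.23 to 0.17 for PERP. For BRDT-OE they were -0.0097 to 0.23 for DSC2, -0.041 to 0.20 for DSG2, -0.0032 to 0.37 for DSP and -0.17 to 0.024 for PKP2. For TE6 siTP63 against siBRDT they were -0.22 to 0.024 for DSG2 and -0.41 to 0.0062 for PERP. For the siBRDT difference they were -0.072 to 0.15 for DSC3 and -0.18 to 0.015 for DSG3, for KYSE150 minus KYSE180 -0.64 to 0.15 for DSG2, and for KYSE150 minus TE6 -0.088 to 0.42 for JUP and -0.20 to 0.85 for PKP2. Where a group was left with 1 library, that library was assumed to vary like the others of its fit.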
